A study of Mus musculus with 35 samples.

Results

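A set of 10 genes of the checkpoint and costimulatory families was followed in CD8+ T cells taken from mouse organs: Ctla4, Cd28, Icos, Pdcd1, Pdcd1lg2, Tigit, Lag3, Havcr2, Cd160 and Tnfrsf9. They were chosen by name, as every array probe whose accession belongs to one of them, which gave 12 probes for 10 genes out of 20886 genes named on the array. Icos and Tnfrsf9 had 2 probes each and the other genes 1. The 8 groups were CD8+ tissue-resident memory cells (Trm) of small intestine (6 arrays), lung (6 arrays) and liver (5 arrays), circulating CD8+ effector memory cells (Tem) of peripheral blood (6 arrays), and whole intestine, whole lung, whole liver and whole peripheral blood mononuclear cells (PBMC) (3 arrays each). All came from healthy, untreated wild type C57Bl/6 female mice of 8 to 16 weeks. Trm were selected magnetically for CD8b and then for CD103, an integrin chain that binds E-cadherin on epithelium, and Tem for CD8b with removal of cells carrying CD62L, a lymph node homing receptor. The selection on CD103 leaves out resident cells without it. The labels put the Tem in the same animals as the Trm without tying array numbers to animals, and do not say how many animals an array pools, and a p-value here reflects only how far the arrays of a group spread, which may be technical. RNA was amplified in 2 rounds before labelling.

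T cells are activated when the antigen receptor and a costimulatory receptor are engaged together, and inhibitory receptors, the checkpoints, restrain that response. CD28 gives the classical costimulatory signal through CD80 and CD86 on antigen-presenting cells, CTLA-4 binds the same ligands and inhibits, and ICOS is a CD28 relative induced on activation. PD-1, encoded by Pdcd1, is a widely studied inhibitory checkpoint and binds PD-L1 (Cd274) and PD-L2 (Pdcd1lg2). Resident memory CD8+ T cells of several tissues are known to carry checkpoint receptors while keeping effector function.

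Cd28, Ctla4 and Icos lie next to each other on mouse chromosome 1, with 0 other protein-coding genes between neighbours in the RefSeq annotation. Pdcd1 is on the same chromosome, Cd160 on 3, Tnfrsf9 on 4, Lag3 on 6, Havcr2 on 11, Tigit on 16 and Pdcd1lg2 on 19. Promoters are shown for Ctla4, Tigit and Pdcd1lg2, the 3 members that were higher in intestine Trm than in both other Trm populations. Each sequence is the 250 bases before the RefSeq start site, in the sense of the gene, on build GRCm38.p6. Capitals mark matches, on either strand, to GGAAA (the core bound by NFAT, a factor activated by antigen receptor signals), TGANTCA (AP-1), TGTGGT (RUNX) or 1 strict form of the NF-kappaB consensus. That form fixes 2 neighbouring T bases, and looser forms were not searched.
Ctla4, chr1:60908775-60909024, plus strand: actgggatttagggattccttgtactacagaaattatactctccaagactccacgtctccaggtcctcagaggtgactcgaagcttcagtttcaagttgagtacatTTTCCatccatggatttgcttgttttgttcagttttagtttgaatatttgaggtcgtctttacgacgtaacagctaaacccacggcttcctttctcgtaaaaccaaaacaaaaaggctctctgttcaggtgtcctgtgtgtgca
Tigit, chr16:43664185-43664434, minus strand: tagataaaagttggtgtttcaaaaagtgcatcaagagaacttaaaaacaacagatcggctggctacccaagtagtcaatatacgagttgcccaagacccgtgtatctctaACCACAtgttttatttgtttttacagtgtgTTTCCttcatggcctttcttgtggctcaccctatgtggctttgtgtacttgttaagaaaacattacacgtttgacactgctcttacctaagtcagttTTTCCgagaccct
Pdcd1lg2, chr19:29410669-29410918, plus strand: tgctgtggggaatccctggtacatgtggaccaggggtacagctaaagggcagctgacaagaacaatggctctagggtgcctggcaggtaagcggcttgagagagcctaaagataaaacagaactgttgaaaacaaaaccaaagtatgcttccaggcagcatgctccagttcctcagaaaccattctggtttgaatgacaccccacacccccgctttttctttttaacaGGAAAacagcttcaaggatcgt
GGAAA occurred 1 time before Ctla4, 2 times before Tigit and 1 time before Pdcd1lg2, and 55.6% of 32851 promoters of this length hold it. TGTGGT occurred 1 time before Tigit, and 14.0% of promoters hold it. TGANTCA, held by 6.75% of promoters, and the strict NF-kappaB form, held by 4.11%, had no match in these 3 windows. Sites of a looser NF-kappaB form would stay in lower case, so that their absence is not shown, for Pdcd1lg2 in particular. None of the matches overlapped another motif. A promoter was at hand for 7 of the 10 genes, and Cd28, Icos and Lag3 were not examined.

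Levels are scanner intensities on a log2 scale, with 0 at each array's own 75th percentile, taken over the probes that every array in the comparison detected above background, so that 1 unit is a 2-fold difference. They order groups for 1 probe and do not compare probes. A gene entered the test once 3 arrays of some group detected its probe well above background, and was called where limma's p, adjusted by Benjamini-Hochberg over all genes tested, was under 0.05. Of the 10 members 8 passed this filter. Lag3 and Pdcd1lg2 passed only through intestine Trm, so that some difference from every other group was built into their choice. The selected cells carried T cell markers in every sorted array. The level summed over 10 T cell markers ranged from 4.02 to 9.97 in intestine Trm, 5.31 to 9.05 in lung Trm, 3.78 to 9.39 in liver Trm and 7.87 to 16.1 in Tem, against 0.0492 to 0.459 in the whole organs (linear intensities, each relative to its array's 75th percentile). Some arrays stood apart. The median of probes never above background was -10.2 on Tem 3 and -5.74 on liver Trm 3, against -8.73 to -6.93 on the other sorted arrays. Whole liver 2 carried more T cell marker signal (0.284) than whole liver 1 and 3 (0.0492 and 0.0883), and whole PBMC 1 carried less (0.132) than whole PBMC 2 and 3 (2.29 and 1.42). These 2 arrays also differed over all probes. Well above background were 64.7% of probes on whole liver 2 and 7.80% on whole PBMC 1, against 22.2 to 40.7% on the other whole arrays. The sorted arrays were scanned on 1 day and the whole organ and PBMC arrays on another, so that scan day and cell sorting cannot be told apart.

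**Figure D1:**
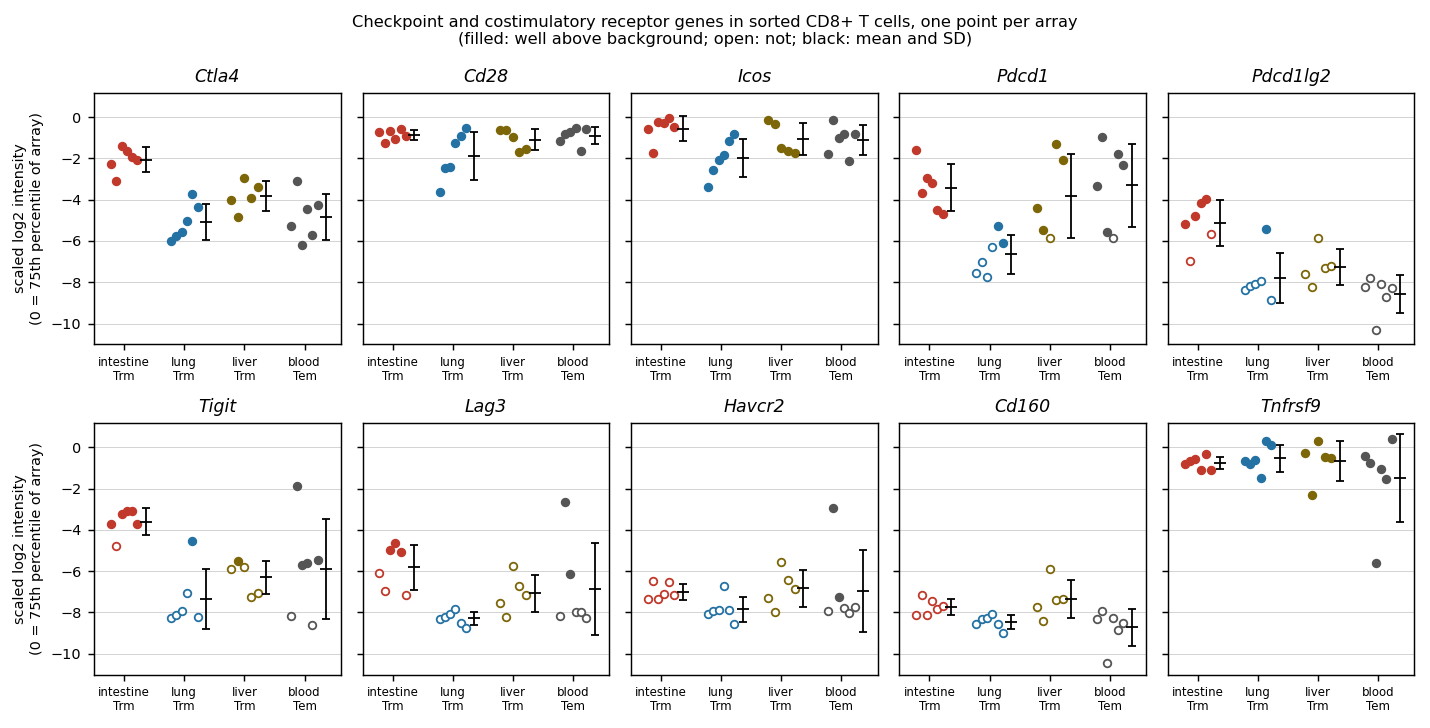
Scaled log2 intensity (y axis, 0 at the array's 75th percentile) of the 10 genes in the 4 sorted populations (x axis), 1 point per array, filled where well above background and open where not, with the mean and SD in black; Icos and Tnfrsf9 are shown by their brighter probe. Ctla4 in intestine Trm lies between -3.08 and -1.40, above all 6 lung Trm arrays, Cd28 is well above background on all 23 arrays, and Cd160 is open throughout.

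Several checkpoint genes were higher in intestine Trm than in other sorted cells. Ctla4, Pdcd1lg2 and Tigit were higher in intestine Trm than in lung and liver Trm, Ctla4 and Pdcd1lg2 were also higher than in Tem, and Pdcd1, Lag3 and Icos were higher than in lung Trm. No tested member was called lower in intestine Trm than in another sorted population. Against lung Trm 6 of 8 tested members were called, all higher, where 9.52% of 8622 genes were called, 5.27% higher and 4.26% lower. Against liver Trm 3 of 8 were called, all higher, where 11.7% of genes were called, 8.87% higher and 2.84% lower. Against Tem 2 of 8 were called, both higher, where 17.7% of genes were called, 8.1% higher and 9.59% lower. Lag3 and Pdcd1lg2 are in these counts and passed the filter only through intestine Trm. Without them 4 of 6 members were called against lung Trm, 2 of 6 against liver Trm and 1 of 6 against Tem. Their median log2 difference was 2.21 against lung Trm, 0.45 against liver Trm and 0.65 against Tem, beside 0.04, 0.11 and -0.03 over all genes. The intestine Trm comparisons share their 6 intestine arrays.

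Ctla4 had levels from -3.08 to -1.40 in intestine Trm with a median of -2.01. In lung Trm it ranged from -5.98 to -3.75 with a median of -5.31, in liver Trm it was -4.0, -4.86, -2.93, -3.92 and -3.36, and in Tem it ranged from -6.22 to -3.07 with a median of -4.87. It was well above background on all 23 sorted arrays, every intestine value exceeded every lung value, and 1 Tem array (Tem 2) reached the lowest intestine value. Ctla4 was higher in intestine Trm than in lung Trm by 3.02 on the log2 scale (SE 0.48, adjusted p = 2.3e-04) and on each of 6 slides. Against Tem the log2 difference was 2.78 (SE 0.48, adjusted p = 3.5e-04), higher on 5 of 6 slides, and against liver Trm 1.75 (SE 0.50, adjusted p = 0.0238), higher on 5 of 5 slides. The call against liver Trm ended with no filter, with slide as a block (1.70, adjusted p = 0.0571) and when liver Trm 2 or 5 or intestine Trm 3 or 4 was left out (adjusted p up to 0.0556).

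Tigit encodes an inhibitory receptor that competes with CD226 for the ligand CD155. Its levels in intestine Trm ran from -4.80 to -3.08 with a median of -3.48. They ran from -8.26 to -4.53 with a median of -8.01 in lung Trm and from -8.62 to -1.87 with a median of -5.66 in Tem, and were -5.90, -5.51, -5.82, -7.23 and -7.07 in liver Trm. The probe was well above background on 5 of 6 intestine arrays, 1 of 6 lung arrays, 1 of 5 liver arrays and 4 of 6 Tem arrays. Intestine and liver values did not overlap, and 1 lung array (lung Trm 5) reached into the intestine range. Tigit was higher in intestine Trm than in lung Trm by 3.74 (SE 0.82, adjusted p = 0.00495) and than in liver Trm by 2.7 (SE 0.86, adjusted p = 0.0436). Most lung and liver arrays lay at background for this probe, so that the size of both differences depends on that background. The call against liver Trm ended with no filter, with slide as a block (2.62, adjusted p = 0.0913) and when any 1 of liver Trm 1, 3, 5 or 6 or intestine Trm 1, 3, 4, 5 or 6 was left out (adjusted p up to 0.113). The same call ended with liver Trm 3 and Tem 3 left out together. Against Tem the log2 difference was 2.29 (SE 0.82, 95% interval 0.59 to 4.00, adjusted p = 0.0563), which was not called. Tem 2 held the highest value of all 23 arrays, and without it the difference was 3.10 (adjusted p = 0.00274).

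Pdcd1lg2 encodes PD-L2, a ligand of PD-1 known mainly from dendritic cells and macrophages. It ranged from -6.99 to -3.98 in intestine Trm (median -4.98) and was well above background on 4 of 6 arrays. In lung Trm it ranged from -8.85 to -5.44 with 1 of 6 arrays above background, in Tem from -10.3 to -7.78 with 0 of 6, and in liver Trm it was -7.62, -8.24, -5.87, -7.32 and -7.20 with 0 of 5. All intestine values lay above all Tem values, and both lung Trm 5 and liver Trm 3 reached into the intestine range, the second at its own background. Pdcd1lg2 was at least 2.44-fold higher in intestine Trm than in Tem (means -5.13 ± 1.11 and -8.58 ± 0.91, SD, n = 6 each, adjusted p = 2.4e-04), where the bound sets the dim arrays at the lowest signal counted as above background. It was called higher in intestine Trm than in lung Trm (adjusted p = 0.00377), where 5 of 6 arrays were at background and no fold is given. The call against lung Trm ended under normexp (adjusted p = 0.0668). Against liver Trm the means were -5.13 and -7.25 (adjusted p = 0.0221), with no fold given because the bound was under 1. That call ended without liver Trm 5 or intestine Trm 4 or 5 (adjusted p up to 0.0572). The summed level of 17 monocyte, macrophage and dendritic cell markers was 1.34 to 2.15 in intestine Trm and 1.18 to 4.10 in Tem, 0 of 9 tested markers of that list differed between them, and 9 of 17 were above background on no intestine Trm array. The part of such cells in the Pdcd1lg2 signal was not tested.

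Lag3 encodes an inhibitory receptor for MHC class II. It was -6.09, -6.95, -4.99, -4.65, -5.06 and -7.16 in intestine Trm arrays 1 to 6 and between -8.77 and -7.85 in lung Trm, with 3 of 6 and 0 of 6 arrays well above background. The ranges did not overlap. Lag3 was at least 1.27-fold higher in intestine Trm than in lung Trm (adjusted p = 0.0333). The call ended under quantile normalization and under normexp, with the authors' deposited values, with no filter, and when any 1 of lung Trm 1, 2, 3 or 6 or intestine Trm 1 was left out (adjusted p up to 0.0727 over these). Lag3 was well above background on 2 of 6 Tem arrays, with -2.66 on Tem 2 and -6.14 on Tem 3, and on 0 of 5 liver arrays. Against Tem its log2 difference was 1.05 (adjusted p = 0.331), and 1.90 (adjusted p = 0.0102) without Tem 2.

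Pdcd1 was lower in lung Trm than in each of the other sorted populations. Its levels were -4.69 to -1.58 in intestine Trm (median -3.44), -7.75 to -5.29 in lung Trm (median -6.63), -4.41, -5.46, -5.87, -1.32 and -2.07 in liver Trm, and -5.86 to -0.95 in Tem (median -2.83). The probe was well above background on 6 of 6 intestine arrays, 2 of 6 lung arrays, 4 of 5 liver arrays and 5 of 6 Tem arrays. With 4 of 6 lung arrays at background, the differences that follow depend in size on that background. In lung Trm against Tem, Pdcd1 fell by 3.35 on the log2 scale (SE 0.86, adjusted p = 0.0307), the only 1 of 8 tested members called in that comparison, where 3.13% of genes were called, 2.1% higher and 1.03% lower. It fell by 2.83 against liver Trm (SE 0.90, adjusted p = 0.0372), again the only 1 of 8 called, where 17.8% of genes were called, 9.27% higher and 8.52% lower. Pdcd1 was higher in intestine Trm than in lung Trm by 3.23 (SE 0.86, adjusted p = 0.0187), without overlap. Against Tem, intestine Trm differed by -0.12 (95% interval -1.90 to 1.65) and liver Trm by -0.52 (95% interval -2.38 to 1.34), neither called. The call of lung Trm against Tem ended under quantile normalization, normexp and the deposited values, and without any 1 of lung Trm 1, 2 or 3 or Tem 1, 2, 5 or 6 (adjusted p up to 0.0823). The call against liver Trm ended under the same 3 settings, with slide as a block (-2.7, adjusted p = 0.0551), and without liver Trm 5 or 6 or lung Trm 1, 2, 3 or 6 (adjusted p up to 0.120). The call of intestine Trm against lung Trm ended under normexp and without lung Trm 3 or intestine Trm 1 (adjusted p up to 0.0523).

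The costimulatory receptors Cd28 and Icos were measured on every sorted array, and differed less. Cd28 levels ran from -1.25 to -0.56 in intestine Trm, -3.61 to -0.54 in lung Trm and -1.64 to -0.53 in Tem, and were -0.64, -0.63, -0.97, -1.68 and -1.55 in liver Trm. The 4 ranges overlapped, with the widest spread in lung Trm. Cd28 was called in 0 of the 6 comparisons among sorted cells. Its log2 difference from Tem was 0.04 in intestine Trm (95% interval -0.77 to 0.84), -0.96 in lung Trm (-1.77 to -0.16, adjusted p = 0.226) and -0.19 in liver Trm (-1.04 to 0.65). Without lung Trm 5 or 6 the difference between intestine and lung Trm, 1.00 in the full set (adjusted p = 0.104), passed the threshold at 1.19 and 1.25.

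Icos ran from -1.76 to -0.06 in intestine Trm (median -0.38), -3.38 to -0.81 in lung Trm (median -1.96) and -2.15 to -0.16 in Tem (median -0.93) on its brighter probe, and was -0.12, -0.33, -1.50, -1.62 and -1.72 in liver Trm. The ranges of all 4 populations overlapped. Icos was higher in intestine Trm than in lung Trm by 1.41 (SE 0.43, adjusted p = 0.0403), on each of 6 slides. The other Icos probe gave 1.27 (SE 0.42, adjusted p = 0.0589 among all probes), and the call was kept in 3 of 10 alternative settings. It was also lost without any 1 of lung Trm 1, 2, 3 or 4 or intestine Trm 1, 3, 4, 5 or 6 (adjusted p up to 0.0981). Against Tem the Icos difference was 0.56 in intestine Trm, -0.84 in lung Trm and 0.07 in liver Trm, none called.

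Liver Trm differed from Tem in 0 of 8 tested members, where 40.3% of genes were called by limma, 15% higher and 25.4% lower. At an unadjusted p under 0.05 it was 1 of 8, Pdcd1lg2, beside 4425 of all 8622 genes. Ctla4 had a log2 difference of 1.02 (95% interval -0.01 to 2.06, adjusted p = 0.101), and Pdcd1lg2 was above background on no array of either group, so that no difference is read from it. Ctla4 passed the threshold without liver Trm 2 (1.29, adjusted p = 0.0486) or without Tem 2 (1.38, adjusted p = 0.0267).

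**Figure D2:**
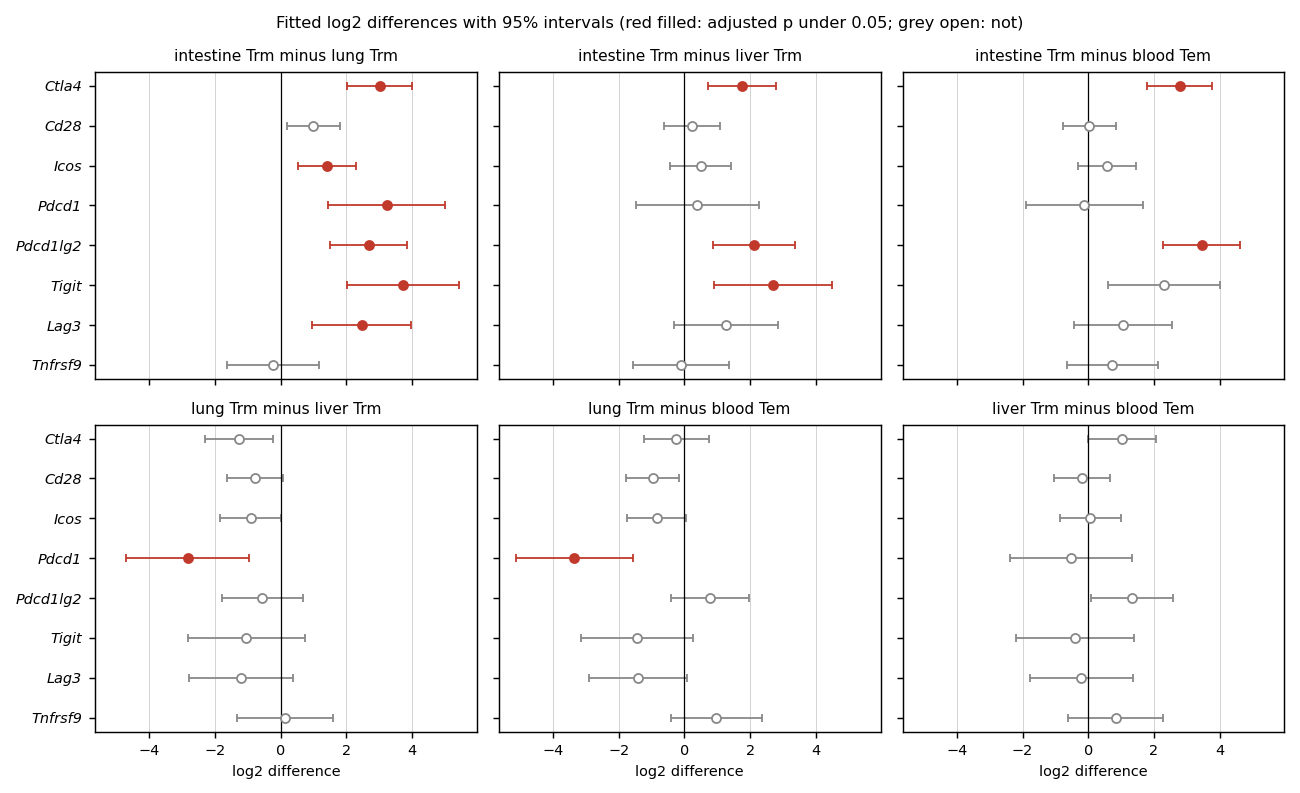
Fitted log2 differences (x axis) of the 8 tested genes (y axis) in the 6 comparisons among sorted cells, with 95% intervals; red filled points have an adjusted p under 0.05, grey open points do not. In the intestine minus lung panel 6 of 8 points are red and to the right of 0, and in the liver Trm minus blood Tem panel no point is red.

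Tnfrsf9 encodes 4-1BB, a costimulatory receptor of the TNF receptor family induced on activated CD8+ T cells, and its 2 probes disagreed. The brighter probe was well above background on all 23 sorted arrays, ranged from -1.11 to -0.32 in intestine Trm, -1.48 to 0.33 in lung Trm and -5.61 to 0.41 in Tem, and was -0.27, -2.33, 0.29, -0.47 and -0.53 in liver Trm. It was called in 0 of 6 comparisons. The dimmer probe was well above background on 4 of 35 arrays, all of intestine Trm, where it had -3.45, -6.97, -4.83, -5.45, -4.03 and -5.31. When every probe was tested on its own, a choice made after the data were seen, the dimmer probe was at least 2.65-fold higher in intestine Trm than in Tem (adjusted p = 2.3e-04), at least 2.22-fold higher than in lung Trm (adjusted p = 4.5e-04) and at least 1.06-fold higher than in liver Trm (adjusted p = 0.0177). It passed the filter only through intestine Trm. Which probe reports the Tnfrsf9 transcript was not tested.

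Havcr2 and Cd160 were below the filter. Havcr2 encodes TIM-3, an inhibitory receptor of activated T and myeloid cells, and was well above background on 2 of 23 sorted arrays, Tem 2 (-2.93) and Tem 3 (-7.27). Elsewhere it lay between -8.56 and -5.56. Cd160 encodes a receptor for HVEM carried by natural killer cells and by intraepithelial lymphocytes, and was well above background on 0 of 35 arrays, which bounds its level without showing absence of the transcript. Tem 2 was the Tem array with the highest value for 10 of the 12 member probes, among them Tigit, Lag3, Havcr2, Pdcd1 (-0.95) and Ctla4 (-3.07). The 10 include Cd160, Pdcd1lg2 and the dimmer Tnfrsf9 probe, which were not above background on Tem 2. The median of probes never above background was -7.70 on Tem 2, the highest of the Tem arrays. The share over all probes was not taken.

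Markers of tissue cells moved with the groups. Of 6 tested gut epithelial markers 5 were higher in intestine Trm than in Tem, with a summed level of 0.408 to 3.84 in intestine Trm and 0.0221 to 0.0368 in Tem, against 10.6 to 27.1 in whole intestine. Of 8 lung epithelial markers 4 were higher in lung Trm than in Tem (0.157 to 8.76 against 0.105 to 0.246), and all 7 tested hepatocyte markers were higher in liver Trm than in Tem (1.71 to 13.7 against 0.0380 to 0.0646). The same sums were 6.35 to 8.45 in whole lung and 13.1 to 13.8 in whole liver. Lung Trm 1 (8.76) and liver Trm 3 (13.7) thus reached the level of the whole organ. Of the 9 tested T cell markers 2 were lower in intestine Trm than in Tem, Cd8b1 and Cd2. In liver Trm 2 of 9 were also lower than in Tem, Cd8b1 and Cd8a, and in lung Trm 0 of 9 were called. Of all genes 9.59% were lower in intestine Trm than in Tem, and 25.4% in liver Trm. CD4 and regulatory T cell markers, a list that matters for Ctla4, Icos and Tigit, had a summed level of 0.116 to 0.437 in intestine Trm and 0.0908 to 0.409 in Tem, and 0 of 3 tested markers differed. Markers of other blood cells moved as well. The summed level of 8 B cell markers was 0.253 to 3.43 in intestine Trm, 0.0472 to 0.252 in lung Trm, 0.0948 to 0.728 in liver Trm and 0.135 to 0.417 in Tem, and Jchain, a plasma cell gene, was called higher in intestine Trm than in each of the others. The neutrophil genes S100a8 and S100a9 and the macrophage gene Marco were called higher in lung Trm and in liver Trm than in Tem. Of 9 tested monocyte, macrophage and dendritic cell markers, 3 were higher and 0 lower in lung Trm than in Tem. In that comparison 3.13% of all genes were called. In liver Trm 3 of the 9 markers were higher and 1 was lower than in Tem, where 40.3% of all genes were called. Of 4 tested mast cell and neutrophil markers, 2 were higher and 0 lower in each of these Trm populations. The part of these cells in the member differences was not tested.

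The other receptors of the pathway moved in both directions in intestine Trm. Against Tem, 2 of 15 tested other co-signalling receptors were higher, Tnfrsf1b (1.37, adjusted p = 0.0241) and Cd101 (1.12, adjusted p = 0.0272), and 3 were lower, among them Tnfrsf25 (-1.11) and Cd27 (-1.01), costimulators of the TNF receptor family. The list's median was -0.10 against -0.03 over all genes. The calls are read beside 17.7% of all genes called in that comparison. In liver Trm 1 was higher and 5 lower than in Tem, where 40.3% of all genes were called (median -0.77 against -0.28 over all genes), led by Crtam (-2.13, adjusted p = 0.0101) and Tnfrsf18, the costimulator GITR (-1.50, adjusted p = 0.00369). In lung Trm 0 of 15 were called against Tem, with a median of -0.30 against -0.10. Against liver Trm, Crtam and Tnfrsf18 were higher in intestine Trm (2.03 and 1.57) and in lung Trm (1.83 and 1.19).

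Among the ligands of the members, Cd274, which encodes PD-L1, was higher in intestine Trm than in Tem by 0.91 (SE 0.26, adjusted p = 0.0173) and than in lung Trm by 1.07 (SE 0.26, adjusted p = 0.00978). Fgl1, a liver-secreted ligand of LAG-3, was at least 7.01-fold higher in liver Trm than in Tem (adjusted p = 1.4e-05) beside the hepatocyte markers above. Cd80, a ligand of CD28 and CTLA-4, was higher in liver Trm than in Tem by 1.26 (adjusted p = 0.00997). Cd86, Icosl and Lgals9, a ligand of TIM-3, were called in 0 of the 3 comparisons of Trm with Tem. Pvr, which encodes CD155, Nectin2, Tnfsf9 and Tnfrsf14, the HVEM gene, did not pass the filter among sorted cells. Over the whole ligand list, 2 of 13 tested genes were higher and 0 lower in intestine Trm than in Tem (median 0.39), the other 1 being Cd200 (at least 4.01-fold, adjusted p = 0.00183). Of all genes 17.7% were called in that comparison, 8.1% higher and 9.59% lower, with a median of -0.03.

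Signalling partners of the receptors also moved in both directions. In intestine Trm 1 of 23 was higher, Pik3r1, a subunit of the kinase recruited by CD28 and ICOS (1.14, adjusted p = 0.0246), and 5 were lower, among them Prkcq (-1.68, adjusted p = 0.00103) and Dgkz (-1.21, adjusted p = 5.7e-04). The median was -0.39 against -0.03 over all genes, of which 17.7% were called. In liver Trm 1 was higher and 10 lower, where 40.3% of all genes were called and 25.4% were lower, led by Sh2d1a, the adaptor SAP (-2.30, adjusted p = 7.7e-04), with a median of -0.80 against -0.28, and in lung Trm 0 of 23 were called (median -0.36 against -0.10). Of 15 activation and exhaustion linked regulators, 6 were higher and 4 lower in intestine Trm than in Tem (median 0.43 against -0.03, with 17.7% of all genes called), including Egr2 (at least 2.63-fold, adjusted p = 2.4e-04), Bhlhe40 (3.46, adjusted p = 6.8e-04) and Nr4a2 (2.83, adjusted p = 0.00161), with Bach2 lower (-2.80, adjusted p = 4.6e-04). Nr4a2 is an orphan nuclear receptor induced by antigen receptor signals and Bach2 a repressor of effector genes. In lung Trm 3 were higher and 1 lower, with Egr2 at least 5.20-fold higher (adjusted p = 5.9e-05), Nr4a1 2.48 (adjusted p = 0.0024), Id3 2.22 (adjusted p = 0.0426) and Tbx21 -1.83 (adjusted p = 0.0365). In liver Trm 4 were higher and 2 lower, with Egr2 at least 3.06-fold higher (adjusted p = 2.5e-04) and Nfatc2 lower (-2.64, adjusted p = 0.00364). These 3 comparisons share the Tem arrays, none of which had Egr2 above background.

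Whole organs and PBMC served as a further control beside the sorted cells. In these bulk samples fewer cells of a type and less RNA per cell cannot be told apart. Levels in this comparison are scaled over all 35 arrays and are not the values given above. All 9 tested T cell markers were higher in each sorted population than in its whole organ or PBMC. Cd28 and Icos were also higher in all 4, while Ctla4 and Pdcd1 were lower in lung Trm, liver Trm and Tem. Of 8 tested members, 6 were called in intestine Trm against whole intestine, all higher. Of 10636 genes 31.8% were called there, 11.7% higher and 20.1% lower. Lag3 and Pdcd1lg2 are among these 6. Both passed the filter over all 35 arrays only through intestine Trm, so that some difference was built into their choice. In lung Trm against whole lung 4 were called, 2 higher and 2 lower, where 41.5% of genes were called, 15.7% higher and 25.8% lower. In liver Trm against whole liver 5 were called, 2 higher and 3 lower, where 32.3% of genes were called, 8.53% higher and 23.7% lower. In Tem against whole PBMC 4 were called, 2 higher and 2 lower, where 55.2% of genes were called, 43.9% higher and 11.3% lower. All genes together shifted by 0.84 (median) in Tem against whole PBMC, so that the differences there are read against that shift.

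Cd28 was -1.99 to -1.06 in intestine Trm, against -9.35, -7.33 and -6.10 in whole intestine. It was -4.09 to -1.13 in lung Trm, against -9.44, -9.60 and -9.25 in whole lung, and -2.55 to -0.97 in liver Trm, against -9.09, -8.51 and -8.81 in whole liver. No organ value reached a Trm value. Cd28 was at least 25.9-fold higher in lung Trm than in whole lung (adjusted p = 3.5e-10) and at least 25.6-fold higher in liver Trm than in whole liver (adjusted p = 1.1e-09). In intestine Trm it was higher than in whole intestine by 6.13 (SE 0.64, adjusted p = 1.9e-09), and in Tem higher than in whole PBMC by 3.93 (SE 0.64, adjusted p = 1.7e-05). Icos was at least 68.9-fold higher in intestine Trm than in whole intestine (adjusted p = 1.2e-11), at least 26.2-fold higher in liver Trm than in whole liver (adjusted p = 5.9e-09), and higher by 4.77 in lung Trm than in whole lung (adjusted p = 3.3e-07) and by 4.45 in Tem than in whole PBMC (adjusted p = 4.6e-06).

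Ctla4 was -4.71, -5.20, -4.19, -4.78 and -4.18 in liver Trm, against -1.54, -1.64 and -1.81 in whole liver, and -6.46 to -4.57 in lung Trm, against -2.13, -1.68 and -0.91 in whole lung. Every whole liver and whole lung value lay above every Trm value of that organ. The log2 difference was -2.95 in liver Trm (SE 0.64, adjusted p = 4.7e-04) and -4.08 in lung Trm (SE 0.62, adjusted p = 2.4e-06). In the intestine the direction turned, with -3.82 to -1.85 in intestine Trm, against -3.60, -5.35 and -7.03 in whole intestine (difference 2.67, SE 0.62, adjusted p = 9.7e-04), and the ranges overlapped. In Tem it was -6.05 to -3.52, against -0.99, -2.31 and -4.19 in whole PBMC (difference -2.74, adjusted p = 4.6e-04). Whole PBMC 1, the PBMC array with the least T cell signal, was the brightest after scaling. Before scaling its intensity was 22736, below the 26408 of whole PBMC 2, and only 7.80% of its probes were well above background.

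Pdcd1 was -5.12, -5.80, -7.13, -2.19 and -2.88 in liver Trm, against -0.47, -0.28 and -0.32 in whole liver, and -8.23 to -6.11 in lung Trm, against -0.56, -0.41 and -0.10 in whole lung. The log2 difference was -4.27 in liver Trm (SE 0.99, adjusted p = 9.1e-04), -6.87 in lung Trm (SE 0.96, adjusted p = 6.0e-07) and, against whole PBMC, -3.47 in Tem (SE 0.96, adjusted p = 0.00271). Whole intestine was uneven, with -0.94, -1.22 and -5.25, against -5.35 to -2.29 in intestine Trm, a difference of -1.55 that was not called (adjusted p = 0.210) and that was -2.94 (adjusted p = 0.0282) without whole intestine 3. The brighter Tnfrsf9 probe was also highest in whole liver, with 1.46, 0.88 and 1.26, against -2.67 to -0.97 in liver Trm (difference -2.66, SE 0.85, adjusted p = 0.0145). That call ended without whole liver 1 (adjusted p = 0.0581), and with the mean of both probes or scaling over all probes (adjusted p up to 0.225). The dimmer Tnfrsf9 probe was above background in 0 of 12 whole organ and PBMC arrays. The T cell marker sums above show that whole liver and lung held little T cell signal where the Ctla4, Pdcd1 and brighter Tnfrsf9 probes were bright. Which transcripts those probes picked up there was not tested.

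**Figure D3:**
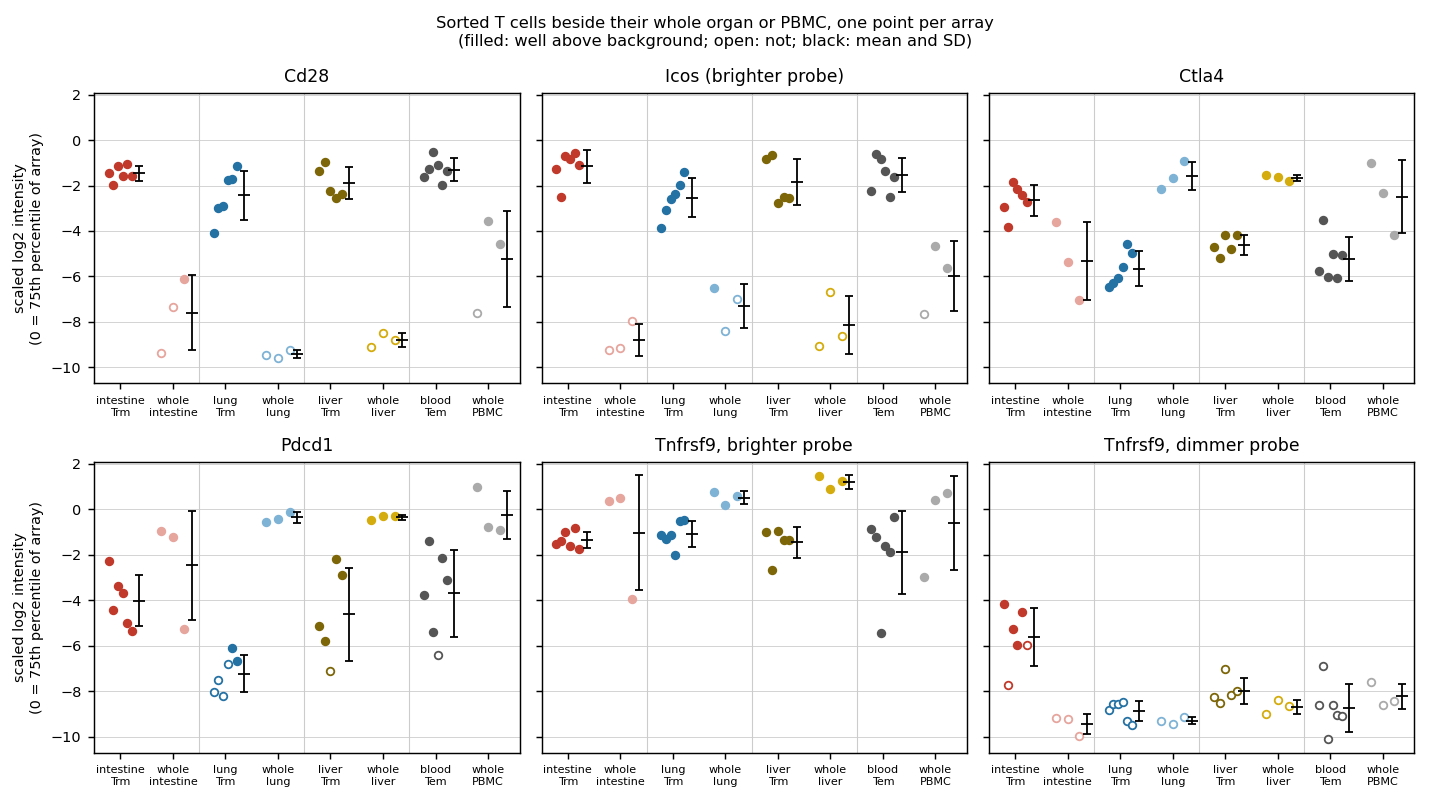
Scaled log2 intensity (y axis, scaled over all 35 arrays) of 6 probes in the 3 Trm populations and Tem, each left of its whole organ or PBMC (x axis), 1 point per array, filled where well above background, with mean and SD in black. Cd28 and Icos are high in sorted cells and low in organs, Ctla4 and Pdcd1 are brighter in whole lung and liver than in the Trm of those organs, and the dimmer Tnfrsf9 probe is filled only in 4 intestine Trm arrays.

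Tigit, Pdcd1lg2 and Lag3 were higher in sorted than in whole intestine. Pdcd1lg2 and Lag3 passed the filter only through intestine Trm, so that some of this difference was built into their choice. Tigit was at least 8.34-fold higher in intestine Trm than in whole intestine (adjusted p = 2.7e-05), Pdcd1lg2 at least 2.91-fold (adjusted p = 1.5e-05) and Lag3 at least 1.81-fold (adjusted p = 0.0134), and all 3 were above background on 0 of 3 whole intestine arrays. The Lag3 call ended under quantile normalization, normexp and the deposited values. In lung Trm against whole lung and liver Trm against whole liver none of the 3 was called. Whole liver 2 was the only whole liver array with these probes above background, at -5.53 for Tigit, -4.82 for Lag3 and -5.96 for Pdcd1lg2. That array had 64.7% of all probes well above background, against 27.5% and 27.4% on whole liver 1 and 3.

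**Figure D4:**
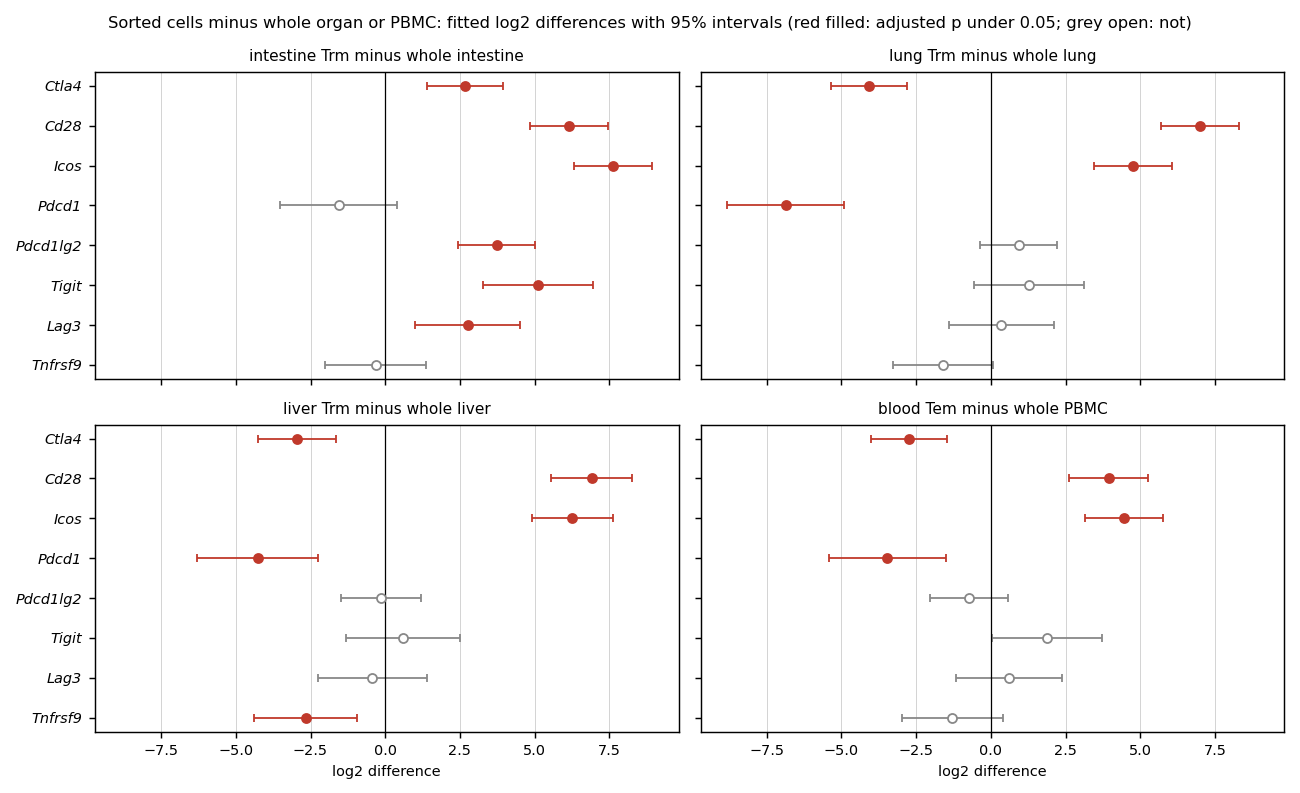
Fitted log2 differences (x axis) of the 8 tested genes (y axis) between each sorted population and its whole organ or PBMC, with 95% intervals; red filled points have an adjusted p under 0.05. Cd28 and Icos lie right of 0 in all 4 panels, and Ctla4 lies right of 0 in the intestine panel and left of 0 in the other 3.

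Likeness between members is given as a description over the 8 group means, in which scan day and sorting go together. Cd28 and Icos were alike (Pearson r = 0.96). Tigit was above background on 12 of 35 arrays and Lag3 and Pdcd1lg2 on 6 of 35 each, so that most of their group means are background levels and their likeness to other genes is not read here. The Ctla4 probe was closer to the Pdcd1 probe (r = 0.77) than to that of Cd28 (r = -0.56), its neighbour on the chromosome. The Ctla4, Pdcd1 and brighter Tnfrsf9 probes had their highest group means in whole organs or PBMC. Which transcripts they picked up there was not tested, so that their likenesses describe probes. The genes most like a member over these means were Nr4a2, Ubox5 and Oprk1 for Ctla4 (r = 0.95 for the first), Stk17b, Ptpn22 and Cytip for Cd28 (r = 1.00), Arid5a, Selplg and Sesn3 for Icos (r = 0.99), and Itgad, Epc2 and Vps54 for Pdcd1 (r = 0.99). For the brighter Tnfrsf9 probe they were Sema6d, Tmprss3 and Il15ra (r = 1.00).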

How the data were processed

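RNA of 35 samples was hybridised to 1-colour Agilent mouse arrays, 1 array each, and read with Agilent Feature Extraction 11.0.1.1, per the file headers, and the labels list Feature Extraction 10.7 and Partek in the submitters' notes. The scanner intensities the authors deposited are background-corrected processed signals, per the file headers. The authors also deposited log2 values, which matched quantile normalization of these signals (largest median difference 0.000526) and served as an alternative. Of 39429 probes, 27508 were named through RefSeq (GRCm38.p6).

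Intensities were put on a log2 scale and centred on each array's 75th percentile over probes well above background on all arrays of the fit. Separate fits used limma 3.58.1 (R 4.3.3): 23 sorted arrays (8622 genes) and all 35 (10636 genes), with the brightest probe for each gene and Benjamini-Hochberg adjustment over all genes. The fit was checked on simulated data. Well above background were 12.2 to 35.5% of probes on sorted arrays and 7.80 to 64.7% on whole arrays, and the number of arrays limits the precision. The members and gene lists were chosen with earlier results of these data known. Named were all members, at most 4 called genes of largest difference for each list and comparison, T cell markers, ligands of the members and the 3 genes most like each member, which for Lag3, Tigit and Pdcd1lg2 are not reported here. Replicate numbers of sorted arrays are slides. The correlation of same-numbered deviations had a median of -0.008 and exceeded 0.1 in 7 of 33 pairs, so that no pairing was used. Other scalings, filters, probe rules, blocks and left-out arrays were tried.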

Additional observations from a re-analysis of the deposited data

Results flagged for a closer look

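Of 48 sets of values (12 probes in 4 sorted groups), 9 held an array far from the rest by Dixon's criterion, where chance gives about 1 in 20. On Tem 3 the values were low for Cd160 (-10.46, nearest -8.83), Pdcd1lg2 (-10.33, nearest -8.73) and the brighter Tnfrsf9 probe (-5.61, nearest -1.55), and the first 2 probes were not above background. On Tem 2 Havcr2 was high (-2.93, nearest -7.27). Intestine Trm 2 was low for Tigit (-4.80, nearest -3.71) and for both Icos probes (-1.76, nearest -0.56, and -2.80, nearest -1.34). Lung Trm 5 was high for Tigit (-4.53, nearest -7.04) and Pdcd1lg2 (-5.44, nearest -7.93), both well above background there.

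The difference between Trm and whole organ itself differed between organs in 8 of 24 tests of members by limma, where 14.5% of all genes were called for intestine against liver, 22.1% for intestine against lung and 16% for lung against liver. For intestine against liver, the log2 difference was larger by 5.62 for Ctla4 (adjusted p = 1.58e-05), 4.52 for Tigit (adjusted p = 0.0146) and 3.87 for Pdcd1lg2 (adjusted p = 0.00237). For intestine against lung, it was larger by 6.75 for Ctla4 (adjusted p = 4.91e-07), 3.84 for Tigit (adjusted p = 0.0283), 5.32 for Pdcd1 (adjusted p = 0.00389), 2.80 for Pdcd1lg2 (adjusted p = 0.0223) and 2.86 for Icos (adjusted p = 0.0206). No member was called for lung against liver. Tigit was above background on 0 of 3 whole intestine arrays, 0 of 3 whole lung arrays, 1 of 6 lung Trm arrays, 1 of 5 liver Trm arrays and 1 of 3 whole liver arrays. Pdcd1lg2 was above background on 0 of 3 whole intestine, 0 of 3 whole lung, 1 of 6 lung Trm, 0 of 5 liver Trm and 1 of 3 whole liver arrays. The sizes given for these genes rest on background levels in every group but intestine Trm. Pdcd1lg2 also passed the filter only through intestine Trm, so that some of its difference was built into its choice.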

How the results depend on the processing

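Under the alternatives other than leaving out 1 array, 100 counts of called members stayed within 1.5 times the main count and 14 did not. Apart from the stricter filter, described below, the cause was not tested. In lung Trm against Tem 0 were called under quantile normalization, normexp and the deposited log2 values. In lung Trm against liver Trm 0 were called under normexp and with the replicate block, and 3 with no filter. Among those 3 was Cd160, above background on no array. In intestine Trm against lung Trm 2 were called under normexp and 3 with a stricter filter. In intestine Trm against liver Trm 1 was called with no filter, with a stricter filter and with the replicate block. With a stricter filter, which tests fewer genes, 1 was called in intestine Trm against Tem and 3 against whole intestine. That filter asked for every array of some group above background, so that Tigit, Pdcd1lg2 and Lag3 left the test. In the intestine Trm comparisons the calls of the other members were kept under it. With no filter 2 were called in liver Trm against Tem, Cd160 and Pdcd1lg2. Both were above background on no array of either group, so that no difference is read from them. Leaving out each array in turn gave 2 to 4 calls in intestine Trm against Tem, 0 to 3 against liver Trm, 3 to 7 against lung Trm and 5 to 7 against whole intestine. It gave 0 to 1 in lung Trm against Tem, 0 to 2 against liver Trm and 4 against whole lung. It gave 0 to 2 in liver Trm against Tem, 4 to 5 against whole liver, and 4 to 5 in Tem against whole PBMC. Tnfrsf9 in intestine Trm against whole intestine was 1.76 (adjusted p = 0.0150) with the mean of its probes, beside -0.32 with the brighter probe. The replicate block gave 0 calls in liver Trm against Tem, 1 in lung Trm and 2 in intestine Trm against Tem, and 5 in intestine Trm against lung Trm. Same-numbered sorted samples share a slide, and whether they share an animal is not known. Where a probe was at background, the size of a difference is limited by that background.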
